A study of Mus musculus with 12 samples.

Results

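The 10 genes described here encode the MHC class I antigen presentation machinery and 2 subunits of the immunoproteasome. They are the heavy chain genes H2-K1, H2-D1, H2-Q10 and H2-T23, the light chain gene B2m, the peptide transporter genes Tap1 and Tap2, the tapasin gene Tapbp, and the proteasome genes Psmb8 and Psmb9. They were chosen by name, each matched 1 row of the 41128 genes in the table, and all 10 were among the 11782 genes tested. Their levels were measured by RNA sequencing of liver from 12 C57BL/6 mice, for which no other allele is named. All 12 mice were littermates born germ-free and kept in sterile isolators until weaning at day 21. From then on 6 mice, labelled as 3 males and 3 females, stayed germ-free (GF). The other 6, also labelled as 3 males and 3 females, were conventionalized (CV) for 3 weeks in cages holding used bedding from the animal facility. Liver was taken from every mouse at 6 weeks of age. CV mice differed from GF mice in their housing as well as in their microbes, so these cannot be told apart, and the microbes that colonized the CV mice are not named.

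MHC class I molecules display peptides from inside the cell on its surface, where CD8 T cells and natural killer cells read them. Proteasomes cut proteins into peptides, the TAP transporter carries the peptides into the endoplasmic reticulum, and tapasin helps to load them onto a heavy chain that is paired with beta-2-microglobulin. Interferons raise many of these genes together and exchange the catalytic proteasome subunits for the immunoproteasome forms. Liver cells carry class I molecules at a lower density than lymphocytes, and the mouse liver also makes the secreted class I protein Q10.

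The H2 and Tap genes lie close together. On GRCm38, 9 of the 10 genes lie on chromosome 17, between position 33915899 at the start of Tapbp and position 36032855 at the end of H2-T23, and B2m lies on chromosome 2 from 122147686 to 122153083. The annotated spans, with exons and introns, are 33996017 to 34000347 for H2-K1, 35262730 to 35267499 for H2-D1 and 35470089 to 35474563 for H2-Q10. Tap1 (34187553 to 34197225) and Psmb9 (34181987 to 34187764) are divergent neighbors that share 212 exonic bases on opposite strands. The libraries were made with a stranded kit, but whether counting used the strand is not given in the sources used here, so reads of this overlap could fall to either gene. The same holds for Tap2, Psmb8 and Tapbp, which overlap predicted genes on the opposite strand, and Tapbp also shares 149 exonic bases with Zbtb22 on its own strand. The H2 heavy chain genes are close paralogs, so their counts carry an added uncertainty.

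Upstream sequences of some of the 10 genes are shown as a description, and whether they bear on the levels was not tested. RefSeq gives a start on GRCm38.p6 for 9 of the 10 genes, and the 250 bases before each start were searched on both strands for 5 motifs. These were the 11 kappa B letters of class I enhancer A as they stand in H2-K1 (GGGGATTCCCC), an interferon-response-like motif (GAANNGAAA), a CRE-like motif (TGACG), the CCAAT box (CCAAT) and a GAS motif (TTCNNNGAA). In the 30 bases from the enhancer A position on, with exact matches to the first pair of motifs in capitals, the 3 classical and secreted heavy chain genes read:

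H2-K1: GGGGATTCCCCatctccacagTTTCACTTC

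H2-D1: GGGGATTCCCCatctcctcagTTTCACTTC

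H2-Q10: gaggactccccatctccccagTTTCACTTC

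These stretches run 5′ to 3′ and start 111 bases before the RefSeq start of H2-K1 (chr17:34000429-34000458, minus strand), 171 bases before that of H2-D1 (chr17:35262923-35262952, plus strand) and 176 bases before that of H2-Q10 (chr17:35469913-35469942, plus strand). The H2-D1 window lies within an annotated exon of another H2-D1 transcript. Counted from 1 at the 5′ end of the enhancer A letters, H2-Q10 carries the substitutions G2A and T6C. Over the 50 bases from that position on, H2-K1 and H2-D1 had 49 identical bases and H2-K1 and H2-Q10 had 45. The enhancer A letters were found in 10 of 32851 RefSeq windows of this length (0.0304%), among them those of H2-K1 and H2-D1. The interferon-response-like letters were found in 6.31% of windows, among them those of H2-K1, H2-D1 and H2-Q10. The CRE-like letters were found in 17.8% of windows and in those of B2m, H2-K1, H2-D1, Tap1 and Psmb9. The CCAAT box was found in 33.8% of windows and in 7 of the 9, and the GAS letters in 7.02% and in Psmb8. The Tap1 and Psmb9 windows share 225 bases of the same DNA read from opposite strands. These matches are a description of letters and not of bound sites.

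The whole windows of H2-K1 and H2-Q10, which carry different enhancer A letters, and of their shared partner B2m follow, again with the matches in capitals, now to the enhancer A, interferon-response-like, CRE-like and CCAAT letters.

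H2-K1: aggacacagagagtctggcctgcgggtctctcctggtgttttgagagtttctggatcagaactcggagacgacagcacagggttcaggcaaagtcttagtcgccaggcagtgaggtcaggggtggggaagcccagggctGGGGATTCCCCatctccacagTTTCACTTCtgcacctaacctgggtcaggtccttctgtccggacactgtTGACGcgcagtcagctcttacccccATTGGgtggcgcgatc

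H2-Q10: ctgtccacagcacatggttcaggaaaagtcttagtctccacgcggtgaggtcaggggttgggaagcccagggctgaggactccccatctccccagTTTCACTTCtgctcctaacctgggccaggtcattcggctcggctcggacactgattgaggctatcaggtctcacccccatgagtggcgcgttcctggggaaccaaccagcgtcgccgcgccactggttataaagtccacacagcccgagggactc

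B2m: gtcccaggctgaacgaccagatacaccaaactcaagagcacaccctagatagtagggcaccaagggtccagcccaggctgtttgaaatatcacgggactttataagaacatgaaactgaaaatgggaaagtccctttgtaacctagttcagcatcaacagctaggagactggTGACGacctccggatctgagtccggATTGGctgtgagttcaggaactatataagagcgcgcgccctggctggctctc

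The H2-K1 window is chr17:34000348-34000597 on the minus strand, the H2-Q10 window is chr17:35469839-35470088 on the plus strand, and the B2m window, less the 1 base that an exon covers, is chr2:122147437-122147685 on the plus strand. All 3 are printed 5′ to 3′ and end at the base before the gene.

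Recovered depth ranged from 5993619 to 15290835 reads per library, and the libraries of the 2 conditions differed in composition. A set of 10 abundant loci, namely both mitochondrial ribosomal RNA genes and 8 loci picked for averaging above 0.5% of reads with a lower mean share in CV, held 45.6% to 72.4% of the reads in GF libraries and 6.88% to 24.1% in CV libraries. Outside these loci, GF libraries held 1656616 to 4836972 reads and CV libraries 6744949 to 14238465. Among CV libraries, CV male 2 (23.1%) and CV male 3 (24.1%) had the highest shares. CV male 3, labelled male, held 0 reads of 4 Y-linked genes, against 796 to 1314 in the other 5 libraries labelled male and at most 1 in libraries labelled female. Its Xist level was 2382, against 4.68 to 21.3 in the other 5 labelled male. In libraries labelled female, Xist was at 1045 to 1090 in CV and 7607 to 11928 in GF. By both measures CV male 3 was like the libraries labelled female, so its sex label is in doubt. Counts of calls in males, and the male differences given for single genes, are therefore also given without it. The hepatocyte markers Alb, Ttr, Apoa1, Apob, Tat, Cps1 and Cyp2e1 together stood at 111906 to 446412 in GF libraries and at 392920 to 615021 in CV libraries. In all that follows, levels are normalized read counts, that is, read counts divided by 1 size factor per library.

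Most of the 10 genes stood higher in CV livers than in GF livers. Averaged over the sexes, 8 of 10 rose in CV at a Benjamini-Hochberg adjusted p-value under 0.05 in limma, and none fell. Of all genes tested, 32.3% were higher in CV by this call, and 61.1% were called in either direction. The median difference of the 10 genes was 1.01 on the log2(normalized count + 1) scale, beside 0.07 for all genes tested. The increases ran from 0.90 for Tap2 to 1.66 for Tapbp. B2m (0.50) and Tap1 (-0.16) did not pass. In females the same 8 genes rose, where 29.8% of all genes were higher in CV. In males 5 genes rose (H2-D1, H2-Q10, H2-T23, Tapbp and Psmb9), where 14.1% of all genes were higher. Without the library labelled CV male 3, 4 genes rose in males, with Psmb9 no longer passing, beside 12.1% of all genes. With single libraries left out in turn the male count ran from 2 to 6, and it was 2 or 3 without GF male 1, GF male 3, GF female 1, CV male 1, CV female 2 or CV female 3. Of these fits, the share of all genes is given here only for that without CV male 3. Over both sexes 9 genes rose when values were scaled to all reads, 5 rose and Tap1 fell when they were scaled to reads outside the abundant loci, and 0 passed with the abundant share as a covariate. Of all genes, 50.3% were higher and 13.7% lower when scaled to all reads, 15.4% were higher and 45.4% lower when scaled to reads outside the abundant loci, and 0% passed with the covariate. Every CV library lay above every GF library for 6 of the 10 genes, beside 15.6% of all genes tested. Within males this held for 7 genes, beside 22%, and within females for 8, beside 34%. Without CV male 3 it held within males for 7 genes, beside 26.3%.

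**Figure D1:**
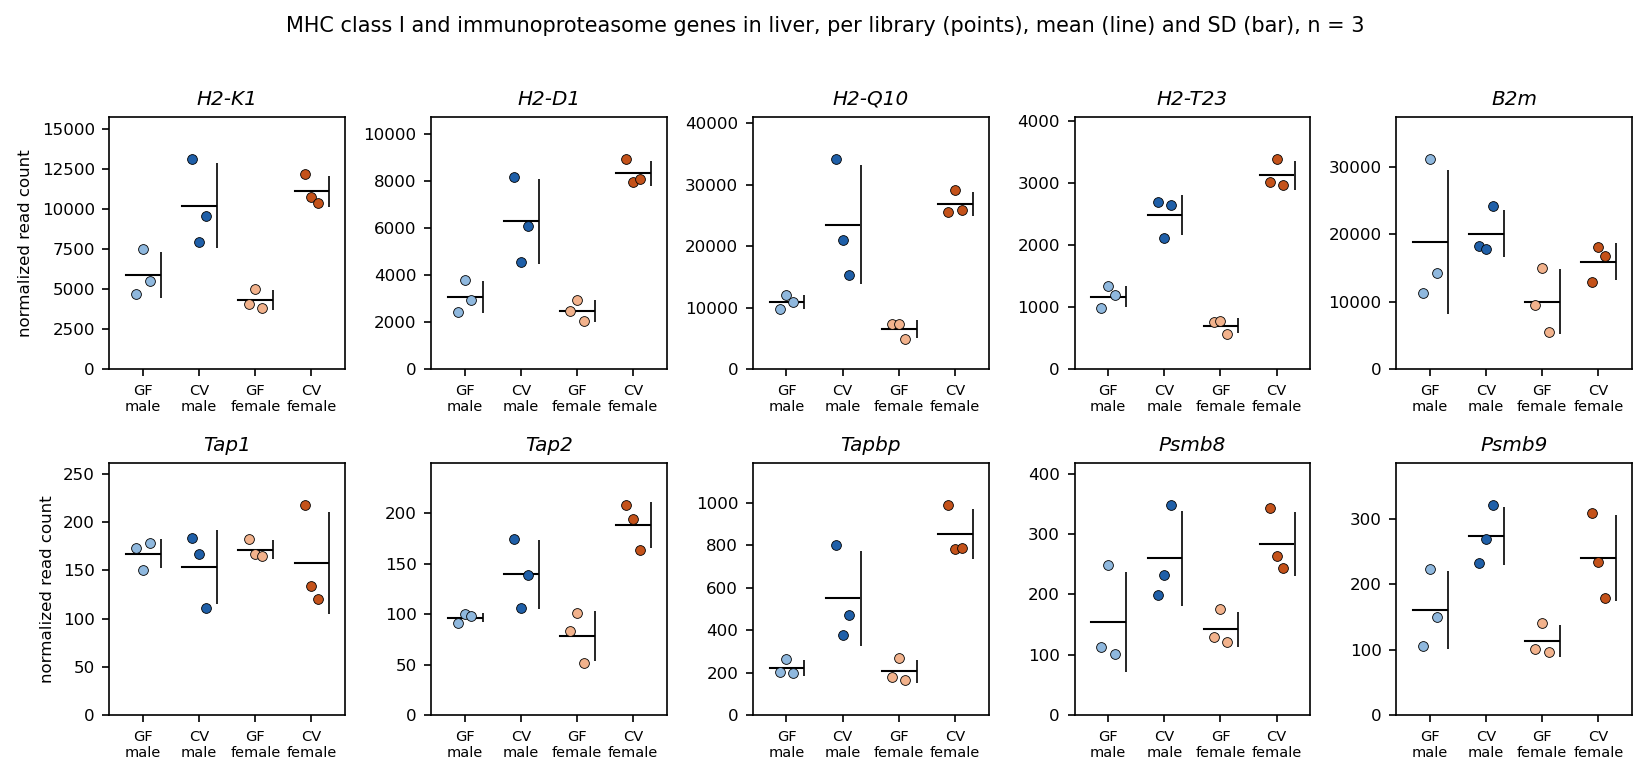
Normalized read counts (vertical axes, linear and starting at 0) of the 10 genes in GF and CV livers of each sex; points are single libraries, lines group means and vertical bars the SD, with n = 3 libraries per group. In H2-T23 every CV library (2109 or above) sits above every GF library (1332 or below), whereas in Tap1 the GF libraries (150 to 183) lie inside the CV range (111 to 218).

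H2-T23 encodes Qa-1, a nonclassical class I molecule that presents leader peptides of other class I proteins to the receptors CD94/NKG2 on natural killer cells. In males it was at 984, 1332 and 1185 in GF and at 2688, 2109 and 2647 in CV. In females it was at 765, 777 and 558 in GF and at 3015, 3378 and 2957 in CV. All 6 CV libraries exceeded all 6 GF libraries. The mean log2 difference was 1.63 ± 0.17 (SE), a fold of 3.09, with an adjusted p of 1.8e-06 in limma, and it was 1.06 when scaled to reads outside the abundant loci.

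H2-Q10 encodes the secreted class I protein of mouse liver. Its levels in males were 9706, 12002 and 10915 in GF against 34120, 20996 and 15314 in CV. In females they were 7327, 7336 and 4874 in GF against 25556, 29132 and 25799 in CV. The groups did not overlap, but the spread among CV males (23477 ± 9646, SD, n = 3) was much wider than among CV females (26829 ± 1998, SD, n = 3). The difference was 1.55 ± 0.25 over both sexes (fold 2.93, adjusted p = 7.8e-05, limma), 1.04 ± 0.36 in males (adjusted p = 0.040) and 2.07 ± 0.36 in females (adjusted p = 0.00020). Scaled to reads outside the abundant loci, the difference over both sexes was 0.98. The male difference was 1.30 without CV male 3 (adjusted p = 0.025, limma). The call in males was lost, with adjusted p-values of 0.052 to 0.13 in limma, when any 1 library other than GF female 2, GF female 3 or CV male 3 was left out. It was also lost with the replicate block (0.099), with only males in the fit (0.11), with genes of a mean of at least 1 tested (0.079) and when scaled to reads outside the abundant loci (0.079).

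H2-K1 and H2-D1 encode the classical class I heavy chains of this strain, which present peptides to CD8 T cells. H2-D1 levels were 2443, 3782 and 2934 in GF males and 8177, 4566 and 6106 in CV males. In females H2-D1 was at 2459, 2931 and 2026 in GF and at 8929, 7959 and 8105 in CV. Each CV library exceeded each GF library, and the difference was 1.40 ± 0.21 (fold 2.63, adjusted p = 3.3e-05, limma), or 0.83 when scaled to reads outside the abundant loci. H2-K1 was at 4705, 7472 and 5504 in GF males and at 13101, 7918 and 9540 in CV males. In females H2-K1 was at 4088, 4987 and 3841 in GF and at 12154, 10733 and 10376 in CV. The H2-K1 groups were also separate, though CV male 2 lay only just above GF male 2. The H2-K1 difference was 1.08 ± 0.22 over both sexes (fold 2.11, adjusted p = 0.00044, limma) and in males 0.78 ± 0.30, which did not pass (adjusted p = 0.062). Without CV male 3 the male difference was 0.82 (adjusted p = 0.10, limma). Over both sexes H2-K1 was at 0.54 after removal of each library's trend with transcript length and GC content (adjusted p = 0.015, limma) and at 0.51 when scaled to reads outside the abundant loci (adjusted p = 0.010).

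B2m, the light chain shared by all these molecules, did not pass the test. B2m was at 11279, 31137 and 14276 in GF males and at 18251, 17859 and 24160 in CV males. In females it was at 9484, 15063 and 5436 in GF and at 12963, 18148 and 16762 in CV. GF male 2 held the highest level of all 12 libraries, and the groups overlapped. The difference was 0.50 ± 0.31 over both sexes, with a 95% interval of -0.16 to 1.16 and an adjusted p of 0.17 in limma. Without GF male 2 it was 0.72 and passed (adjusted p = 0.046), and scaling to reads outside the abundant loci turned its sign (-0.070).

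**Figure D2:**
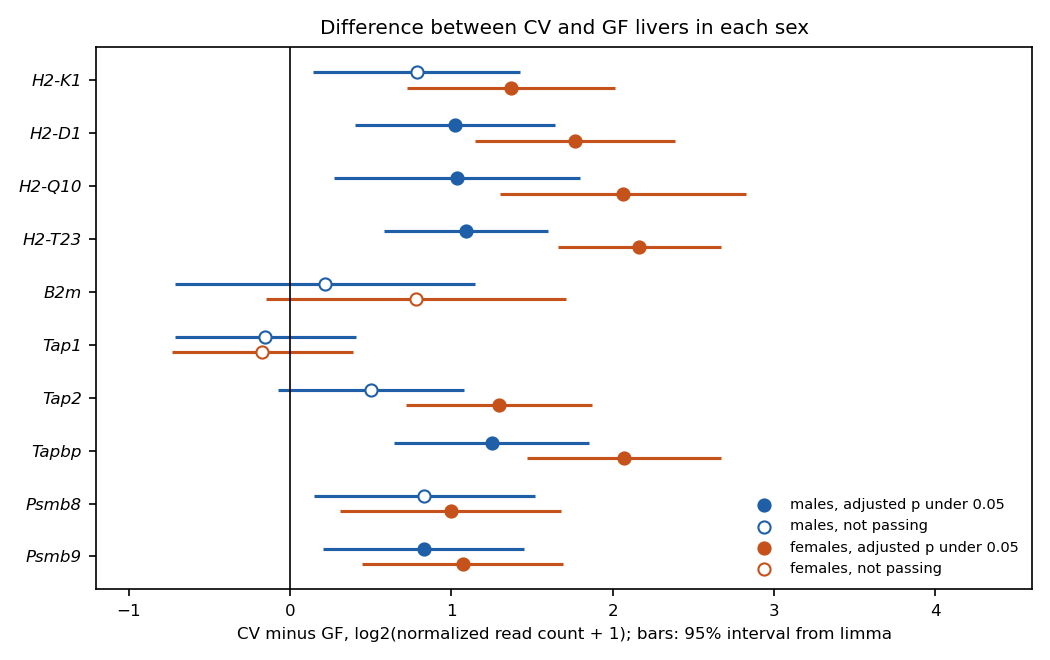
Difference between CV and GF livers for each gene (horizontal axis, log2 scale of normalized count + 1) in males and in females, with 95% intervals from limma over 12 libraries; filled points passed an adjusted p of 0.05. Of the 10 genes, 5 passed in males and 8 in females, and only Tap1 has its point below 0 in both sexes.

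Tap1 and Tap2 encode the 2 subunits of the peptide transporter, and only Tap2 passed the test. Tap1 levels were 174, 150 and 179 in GF males and 183, 167 and 111 in CV males. In females Tap1 was at 183, 168 and 165 in GF and at 218, 134 and 120 in CV. CV libraries lay on both sides of the GF libraries in each sex, and the difference was -0.16 ± 0.19, with a 95% interval of -0.56 to 0.23 and an adjusted p of 0.47 in limma. Its sign depended on the scaling, with 0.40 (adjusted p = 0.15) when values were scaled to all reads and -0.73 (adjusted p = 0.0073) when scaled to reads outside the abundant loci. Tap2, which dimerizes with Tap1 at the membrane of the endoplasmic reticulum, was at 91.3, 99.8 and 97.8 in GF males and at 174, 106 and 139 in CV males. In females Tap2 was at 83.02, 101 and 51.8 in GF and at 208, 194 and 163 in CV. CV libraries lay above GF libraries throughout, with a gap of a few counts between GF female 2 and CV male 2. The Tap2 difference was 0.90 ± 0.19 (fold 1.87, adjusted p = 0.00077, limma), and scaled to reads outside the abundant loci it was 0.34 (adjusted p = 0.11).

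Tapbp encodes tapasin, which bridges the transporter and the empty class I heavy chain. It was at 201, 263 and 197 in GF males and at 799, 374 and 472 in CV males. In females Tapbp was at 181, 269 and 167 in GF and at 988, 782 and 787 in CV. CV levels were all above GF levels, and CV males again spread more widely than CV females relative to their mean. The difference was 1.66 ± 0.20 (fold 3.16, adjusted p = 5.6e-06, limma), 1.25 ± 0.28 in males (adjusted p = 0.0055) and 2.07 ± 0.28 in females (adjusted p = 3.1e-05). Without CV male 3 the male difference was 1.32 (adjusted p = 0.0099, limma), and scaled to reads outside the abundant loci the difference over both sexes was 1.09.

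Psmb8 and Psmb9 encode the immunoproteasome subunits beta5i and beta1i, which take the place of the constitutive subunits encoded by Psmb5 and Psmb6. Psmb8 was at 112, 249 and 101 in GF males and at 199, 231 and 348 in CV males. In females Psmb8 was at 130, 176 and 121 in GF and at 344, 263 and 244 in CV. GF male 2 lay above 3 of the 6 CV libraries, whereas females were separate. The difference was 0.91 ± 0.23 over both sexes (fold 1.89, adjusted p = 0.0026, limma) and in males 0.83 ± 0.32, which did not pass (adjusted p = 0.063), and 0.60 without CV male 3 (adjusted p = 0.21). Psmb9 was at 106, 224 and 150 in GF males and at 233, 269 and 321 in CV males. In females Psmb9 was at 101, 141 and 95.8 in GF and at 308, 234 and 178 in CV. Within each sex CV lay above GF, and the difference was 0.95 ± 0.21 (fold 1.93, adjusted p = 0.00092, limma). When scaled to reads outside the abundant loci, neither subunit passed, with 0.35 for Psmb8 (adjusted p = 0.18) and 0.38 for Psmb9 (adjusted p = 0.11). After removal of the length and GC trend, Psmb8 was at 0.40 and also did not pass (adjusted p = 0.13). In the GF library with the fewest, 50 reads of Psmb9 and 63 of Psmb8 stand behind these levels.

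The constitutive subunits rose as well. Psmb5 (1.54 ± 0.24), Psmb6 (1.07 ± 0.23) and Psmb7 (2.42 ± 0.23) were all higher in CV livers, with adjusted p-values of 4.5e-05, 0.00077 and 9.9e-07 in limma. To compare immunoproteasome and constitutive subunits without the library scaling, the log2 ratio of each replacing subunit to the replaced one was taken within each library. Psmb10, which encodes beta2i, fell relative to Psmb7. The log2 ratio of Psmb10 to Psmb7 was 0.35, -0.02 and -0.04 in GF males and -1.81, -0.90 and -0.22 in CV males. In females it was 0.93, 0.67 and 1.54 in GF and -0.94, -1.10 and -1.15 in CV. All 6 CV ratios lay below the lowest GF ratio, and the mean difference was -1.59, a fold of 3.02 downward. With GF and CV labels exchanged inside each sex, the exact permutation test (two-sided) gave p = 0.005, which is the smallest that 400 relabellings can give, and an adjusted p of 0.015 over 6 ratios. For Psmb8 to Psmb5 the difference was -0.63 (exact permutation p = 0.07, adjusted p = 0.084), with -0.13 in males and -1.13 in females. The male value includes CV male 3, at -1.41 beside -2.23 and -1.84 in CV males 1 and 2. It is not given here without that library. For Psmb9 to Psmb6 the difference was -0.13 (exact permutation p = 0.61, adjusted p = 0.61), and its sign turned to 0.024 without CV female 3. Thus 2 of the 3 ratios did not pass, and 1 of them passed when GF male 3 or CV male 3 was left out (exact permutation, adjusted p = 0.0375 for Psmb8 to Psmb5 in either case).

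**Figure D3:**
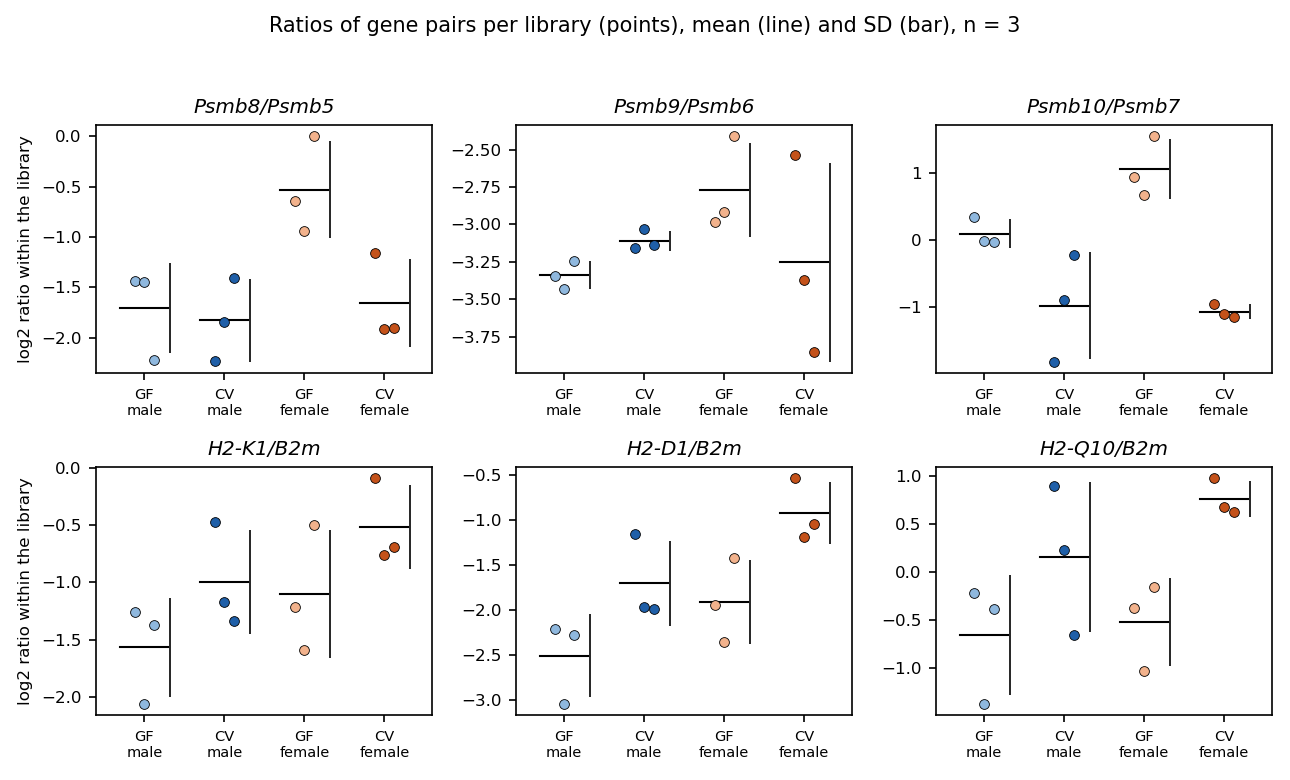
Log2 ratios of 2 genes within each library (vertical axes, not starting at 0) for immunoproteasome over constitutive subunits (top) and class I heavy chains over B2m (bottom); points are libraries, lines means and bars the SD, n = 3 per group. All CV ratios of Psmb10 to Psmb7 lie at -0.22 or below and all GF ratios at -0.04 or above, whereas the ratios of Psmb9 to Psmb6 overlap.

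The heavy chain genes were likewise set against B2m within each library. H2-D1 rose relative to B2m by 0.90 (exact permutation p = 0.005, adjusted p = 0.015), from a GF range of -3.04 to -1.42 to a CV range of -1.98 to -0.54. H2-Q10 rose relative to B2m by 1.05 (exact permutation p = 0.015, adjusted p = 0.03). Here 5 of 6 CV libraries exceeded the highest GF ratio of -0.16, and the library labelled CV male 3 (-0.66) did not. This call was lost on leaving out 7 of the 12 libraries one at a time, with adjusted p-values of 0.05 to 0.07, namely GF male 2, GF female 2, CV males 1 and 2 and all 3 CV females. H2-K1 relative to B2m differed by 0.58 (exact permutation p = 0.065, adjusted p = 0.084) and passed without GF female 3 (exact permutation, adjusted p = 0.02). Within 1 sex, 3 libraries against 3 cannot give a two-sided p below 0.1, so no test was made there.

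Differences were larger in females than in males in 9 of the 10 genes, but no test of this difference passed. The share of all genes with a larger female difference is not given here. The median female minus male difference was 0.66 for the 10 genes and 0.06 for all genes. The abundant share was 62.4% to 72.4% in GF females and 6.88% to 8.69% in CV females. In males it was 45.6% to 55.9% in GF and 6.91% to 24.1% in CV. The part of this wider gap in the female differences was not tested. The interaction of condition and sex had 0 of 10 genes, and 0 of all genes tested (0%), at an adjusted p under 0.05 in limma, and edgeR and DESeq2 also called 0 of the 10. At an unadjusted p under 0.05, 1 of the 10 genes and 1382 of all genes (11.7%) were counted. The 1 gene was H2-T23, where the female difference exceeded the male one by 1.08 ± 0.34 (unadjusted p = 0.0057, adjusted p = 0.42). Without CV male 3, differences were again larger in females in 9 of the 10 genes, and the interaction called 0 of the 10 and 4 of all genes, with H2-T23 alone of the 10 at an unadjusted p under 0.05. Male against female livers over both conditions, 0 of the 10 genes passed in limma, edgeR or DESeq2, beside 1.16% of all genes in limma, and 0 had an unadjusted p under 0.05. The widest such difference was that of B2m, at 0.61 male minus female, with a 95% interval of -0.04 to 1.27.

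The order of the genes by level was read per length of the principal transcript. In CV livers, B2m had the highest median, at 20934 normalized counts per kilobase. H2-Q10 (12897), H2-K1 (6519), H2-D1 (3821) and H2-T23 (1917) followed. Tapbp (271), Psmb9 (186), Psmb8 (156), Tap1 (51.02) and Tap2 (49.03) lay far lower. In GF livers the first 5 genes kept this order, with medians of 14858, 4280, 2993, 1282 and 598. Among neighbors in CV livers, H2-Q10 (7692 to 17137) and H2-K1 (4891 to 8092) overlapped in their ranges, as did B2m (15073 to 28093) and H2-Q10. H2-D1 (2172 to 4248) and H2-T23 (1433 to 2295) overlapped as well. So did Tapbp (129 to 341) and Psmb9 (132 to 237), Psmb9 and Psmb8, and Tap1 and Tap2. These ranges run across libraries, whereas each library holds both genes of a pair. Within every CV library, B2m stood above H2-Q10, H2-Q10 above H2-K1, and H2-D1 above H2-T23. For Tapbp and Psmb9, Psmb9 and Psmb8, and Tap1 and Tap2, the order differed between CV libraries. The order within these last pairs is therefore not beyond the spread of the libraries.

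The rest of the pathway moved with these genes in part. Of 62 other genes on 7 lists, 56 were tested and 27 were higher and 12 lower in CV over both sexes, beside 32.3% and 28.7% of all genes. This split was 36 higher and 3 lower when scaled to all reads and 15 higher and 19 lower when scaled to reads outside the abundant loci, beside the shares of all genes given above for each scaling. Of the class I-like genes, 5 of 5 rose in CV. Fcgrt, which encodes the receptor that recycles IgG and albumin, rose most, from a GF range of 264 to 576 to a CV range of 1216 to 2158 (2.00 ± 0.19). Hfe (1.32), an iron regulator, Cd1d1 (1.17), which presents lipids, Mr1 (1.14), which presents microbial vitamin B metabolites, and Azgp1 (1.06) rose as well. Of 11 other H2 class I genes, 8 were tested, 2 rose and 3 fell. H2-Q7 and H2-T22 rose, each by 1.09, while H2-T24 (-1.11), H2-Q4 (-0.73) and H2-Q6 (-0.47), the last named after its value was seen, were lower. The median of these 8 was -0.17, beside 1.01 for the 10 genes above.

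**Figure D4:**
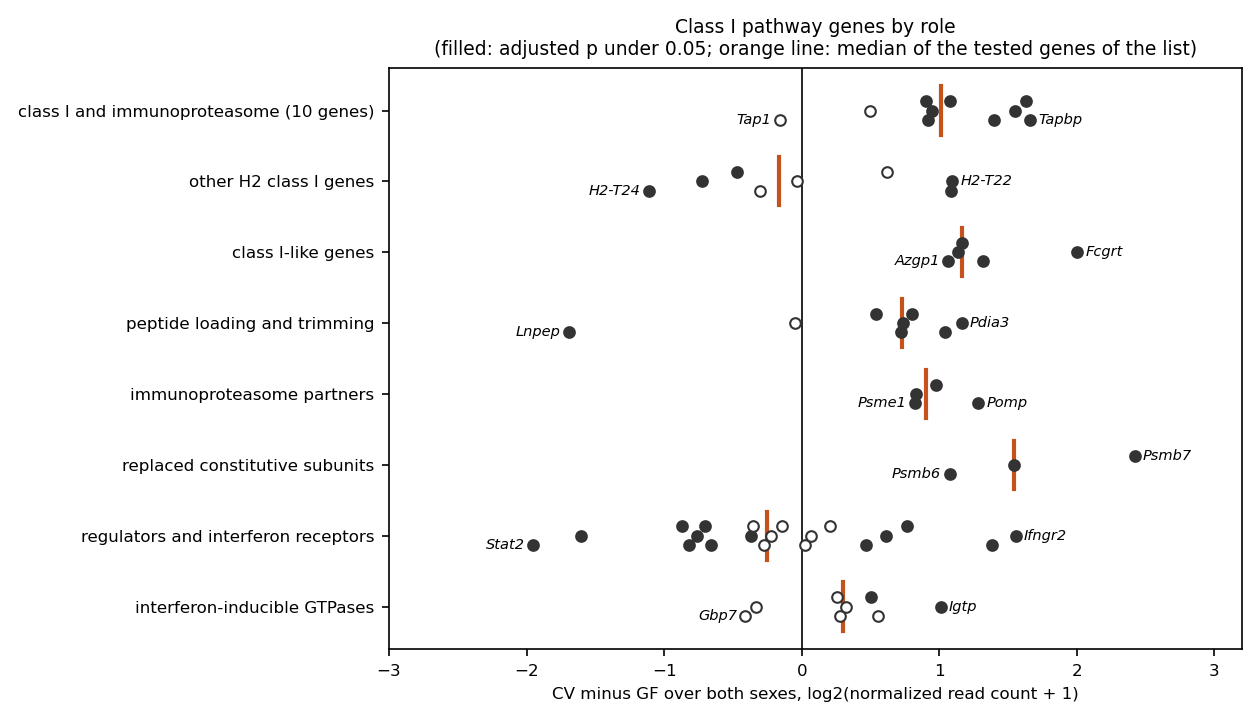
CV minus GF difference over both sexes (horizontal axis, log2 scale of normalized count + 1) of each tested gene by role; each point is a gene, filled where the limma adjusted p was under 0.05, and the orange line is the median of the list. The 5 class I-like genes lie between 1.06 and 2.00, while the regulators spread from -1.95 for Stat2 to 1.56 for Ifngr2.

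Of 8 genes of peptide loading and trimming, 6 rose and 1 fell. The tapasin-related Tapbpl (1.04), the oxidoreductase Pdia3 (1.16) and the chaperone Canx (0.72) rose, and the endosomal peptidase Lnpep fell by 1.69 on the log2 scale. All 4 immunoproteasome partners rose, namely Psmb10 (0.83), the proteasome activator genes Psme1 (0.82) and Psme2 (0.97), and Pomp (1.28), which encodes the assembly chaperone. When scaled to reads outside the abundant loci, Psmb10, Psme1, Canx and Mr1 no longer passed. Of 20 regulators and interferon receptors tested, 5 rose and 8 fell, beside 32.3% and 28.7% of all genes. The receptor chains Ifngr2 (1.56) and Ifnar2 (1.38) rose, whereas Stat2 (-1.95), a mediator of type I interferon signals, and Nfkb1 (-0.87) fell. Nlrc5, the transactivator of class I genes, was at 109 to 431 in GF libraries and at 53.6 to 129 in CV libraries. Its difference was -1.60 ± 0.31 (adjusted p = 0.00031, limma). The sign was opposite to that of H2-K1, H2-D1, H2-Q10, H2-T23, H2-Q7 and H2-T22. It was the same as that of H2-T24, H2-Q4 and H2-Q6. The part of Nlrc5 in these differences was not tested. Irf1, a transcription factor induced by interferon, was at 0.21 ± 0.22 and did not pass (adjusted p = 0.42, limma). It falls outside the naming rule and was named after its value was seen. Of 10 interferon-inducible GTPases, 8 were tested and 2 rose, Igtp (1.01) and Irgm1 (0.50), while Gbp2 (0.55) and Gbp7 (-0.41) did not pass. The call of Igtp was lost, and the sign of Irgm1 turned to -0.064, when scaled to reads outside the abundant loci.

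Markers of lymphocytes were lower in CV livers. Of all genes tested, 32.3% were higher and 28.7% lower in CV, and 61.1% were called in either direction. By direction, hepatocyte and Kupffer cell markers exceeded the share higher and sinusoidal endothelial markers the share lower, in lists of 6 or 7 genes. Lymphocyte markers exceeded the share lower as well. The dendritic cell and monocyte, cholangiocyte and stellate cell lists did not exceed the share of either direction. Of 13 lymphocyte markers, 8 were tested and all 8 were lower in CV, among them Ptprc (-1.96), Cd8a (-2.84) and Nkg7 (-1.91), and the summed level of the list was 434 to 729 in GF and 108 to 196 in CV libraries. Of 6 Kupffer cell markers 3 were higher, with a summed level of 752 to 1493 in GF and 871 to 2007 in CV. Of 6 sinusoidal endothelial markers 3 were lower, with sums of 1809 to 4857 in GF and 795 to 2235 in CV. Of 7 hepatocyte markers 4 were higher. Dendritic cell and monocyte markers had 1 tested gene, which did not pass, and summed to 32.2 to 59.4 in GF and 24.2 to 61.2 in CV. None of 4 cholangiocyte markers passed, with sums of 32.2 to 125 in GF and 48.4 to 144 in CV. Stellate cell markers had 1 gene higher and 1 lower of 5, with sums of 1198 to 2359 in GF and 1293 to 2514 in CV. The part of these cell types in the class I differences was not tested, and in whole liver fewer cells of a type and less RNA per cell cannot be told apart.

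The share of the abundant loci moved opposite to the mean level of the 10 genes. The mean log2 level of the 10 genes was 9.07 to 10.13 in GF livers, below its 10.33 to 10.87 in CV livers, with no overlap, and the abundant share, whose loci were picked for a lower mean in CV, did not overlap between the conditions either. With this share as a covariate in limma, 0 of the 10 genes passed in any of the 3 comparisons of condition, and their median difference over both sexes was 0.03. With the mitochondrial ribosomal RNA share as the covariate, 0 passed as well. The percentage of all genes passing under that covariate is not given here, so this 0 is no result about the 10 genes alone. Neither share can be told apart from the condition in these libraries. Scaling alone shifted all genes, with a median log2 difference over both sexes of 0.07 as deposited, 0.62 when scaled to all reads and -0.48 when scaled to reads outside the abundant loci. Relative to that median, the median of the 10 genes lay 0.94, 0.95 and 0.93 higher. Scaling moves all genes of a library by 1 factor, so this gap had to stay nearly equal. It is therefore no test of whether the class I differences depend on the scaling.

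**Figure D5:**
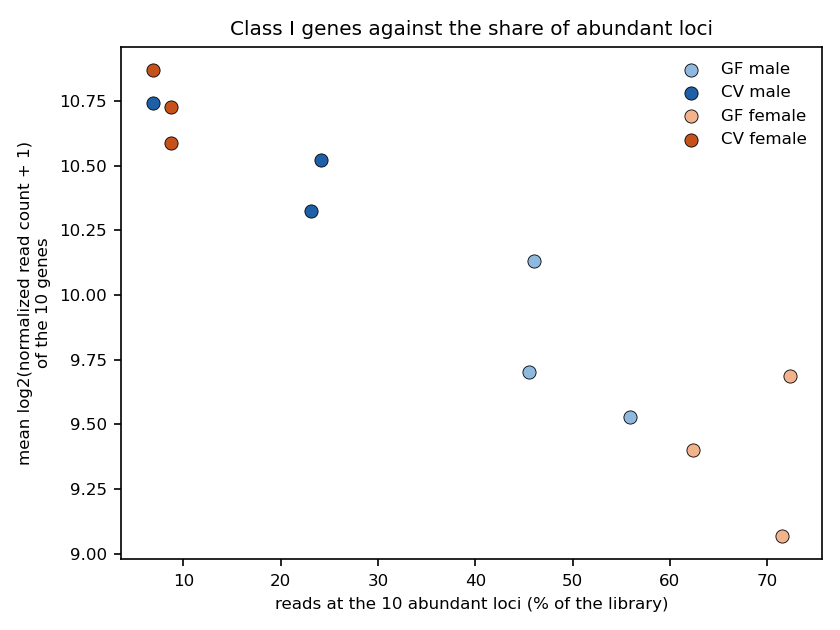
Mean log2(normalized count + 1) of the 10 genes (vertical axis, not starting at 0) against the share of reads at the 10 abundant loci (horizontal axis, % of the library), with 1 point per library. GF libraries lie at 45.6% or more with means of 10.13 or less, and CV libraries at 24.1% or less with means of 10.33 or more.

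The 10 genes resembled each other to different degrees. Over the 12 libraries, the correlation of each gene's deviations from its group mean was positive in 41 of 45 pairs, with a median Pearson r of 0.54. H2-K1 and H2-D1 had the highest r (0.97), and B2m and Tap1 the lowest (-0.41). Psmb8 and Psmb9 reached 0.85. The points of these pairs share library, scaling and depth, so the values are a description. Outside the pathway, the genes whose levels were most like the mean standardized level of the 10 genes were Bccip, Cs, Arpc1a, Qdpr and Uqcrc2, with r from 0.98 to 0.99 over 12 libraries. By deviations from the group mean they were Fem1a, Cs, Mis12, Dbt and Lman1, with r from 0.97 to 0.98.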

How the data were processed

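The authors deposited a normalized signal for each gene, which is its read count over the size factor of that library. Within 0.01 reads, 100% of values in every library were whole multiples of 1 read's worth, and the step matched the DESeq2 size factor over 12512 genes, so whole reads were recovered. The submitters' processing notes name HTSeq 0.6.1p1, DESeq2 and GRCm38, with no roles. The aligner and annotation are not given in the sources used here. Libraries were poly(A) and stranded, 1 per mouse, and groups came from sample titles. The paper given for style describes another experiment, and no method was taken from it.

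Genes with a mean value of at least 10 (11782 of 41128) were tested with limma 3.58.1 in R 4.3.3 on log2(value + 1), which understates changes of low genes. All 12 libraries entered 1 fit with 1 mean per condition and sex, a variance trend and Benjamini-Hochberg adjustment over all genes tested, at a threshold of 0.05. SE and 95% intervals are from this fit. Ratios used exact permutation. The scripts were checked on simulated data. Alternatives were edgeR 4.0.16 and DESeq2 1.42.0 on recovered reads, limma-voom, other pseudocounts, filters, scalings, thresholds and covariates, trend removal, the replicate block and each library left out. The abundant loci were both mitochondrial ribosomal RNA genes and 8 genes that averaged above 0.5% of reads and had a lower mean share in CV than in GF. Names, positions and lengths came from GENCODE mouse release 21, which held 97.9% of identifiers, and upstream sequences from RefSeq.

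The 10 genes, the lists of pathway and marker genes and the tests were chosen with earlier results of these data known. Named were all 10 genes, whole lists of up to 5 genes, the 4 smallest p-values of longer lists, Nlrc5, and the 5 most similar genes by level and by deviation. The covariate of abundant loci was added after the data were seen. Depth limits precision most in GF libraries, where Tap2 had as few as 27 reads.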

Additional observations from a re-analysis of the deposited data

Results flagged for a closer look

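In 2 of the 32 groups of 6 libraries examined, 1 library stood far from the others by Dixon's ratio of the gap to the range, above its 95% critical value, which chance passes in about 1 of 20 groups. B2m in GF livers was at 31140 in GF male 2, where the next highest GF library was at 15060. Tap2 in GF livers was at 51.75 in GF female 3, where the next lowest was at 83.02, a ratio of 0.634. Without GF male 2 the B2m difference over both sexes passed the test, as given above.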

How the results depend on the processing

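Of 12 libraries left out in turn, the number of the 10 genes called stayed between 8 and 9 over both sexes and between 7 and 9 in females, but ranged from 2 to 6 in males. The male count was 2 without GF male 1, GF male 3 or CV male 1 and 3 without GF female 1, CV female 2 or CV female 3. It was also 2 with the replicate block, with only males in the fit and at an adjusted p under 0.01, 3 when scaled to reads outside the abundant loci and 8 when scaled to all reads. The shares of all genes called in males under these settings are not given here. The median male difference of all genes was -0.31 when scaled to reads outside the abundant loci and 0.37 when scaled to all reads. The counts of 3 and 8 are thus no result about the 10 genes alone. Leave-one-out values of the ratios ran from 0.87 to 1.26 for H2-Q10 to B2m, from -0.76 to -0.50 for Psmb8 to Psmb5, from 0.45 to 0.73 for H2-K1 to B2m and from -0.30 to 0.024 for Psmb9 to Psmb6. No pairing by replicate number was seen. Correlations of deviations between libraries of the same number and sex were -0.23 to 0.02, and no GF library correlated best with the CV library of its own number. Deviations cancel out within each small group, which constrains these correlations, so they cannot exclude a pairing. With the replicate block, the ratios Psmb10 to Psmb7 (-1.59), H2-D1 to B2m (0.90) and H2-Q10 to B2m (1.05) kept their size but no longer passed, in a test where swapping 6 pairs allows no p below 0.03125.

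With the mitochondrial ribosomal RNA share as covariate, 0 of the 10 genes were called over both sexes, in males or in females, and 0 of the 56 other pathway genes. The percentage of all genes called under this covariate is not given here. With the share of abundant loci, the counts were also 0 in all 4 cases, beside 0% of all genes over both sexes. The direction turned under the abundant loci share, with no call, in H2-K1 (-0.20 over both sexes, -0.078 in males, -0.31 in females), H2-D1 (-0.017 over both sexes, -0.10 in females), H2-Q10 (-0.41, -0.30 and -0.53), Tap2 (-0.18, -0.23 and -0.13) and, in males, B2m (-0.063). Over both sexes it also turned in H2-Q7 (-0.37), H2-T24 (2.17), H2-Q4 (0.46), Mr1 (-0.32), Hfe (-0.67), Lnpep (0.86), Tapbpl (-1.47), Pdia3 (-1.19), Canx (-0.36), Irgm1 (-0.18) and Gbp7 (1.26). Under the mitochondrial ribosomal RNA share it turned in H2-T24 (1.15), H2-Q4 (0.63), Mr1 (-1.03), Hfe (-0.34), Tapbpl (-0.12) and Gbp7 (0.78). Scaling to reads outside the abundant loci turned B2m (-0.070 over both sexes, -0.16 in males) and Irgm1 (-0.064). Scaling to all reads turned Tap1 (0.40, and 0.16 in males and 0.63 in females) and Gbp7 (0.15), and removing the length and GC trend turned Gbp7 (0.049). In males with each library left out in turn, B2m ran from -0.084 (without GF male 1) to 0.65 (without GF male 2) and Tap1 from -0.29 to 0.065 (without CV male 3). The cause was not tested. The interaction and sex counts of the 10 genes were 0 under all alternatives run. In limma over all 12 libraries, 0% of all genes passed for the interaction and 1.16% for sex. These counts of 0 are thus no result about the 10 genes alone.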
